A study of Mus musculus with 4 samples.

Results

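Immediate early genes are transcribed within minutes of a stimulus from factors that the cell already holds, without new protein synthesis. Growth factors, cytokines, antigen receptors and physical stress reach them through MAP kinases, serum response factor and CREB, and enzymatic dissociation of a tissue is known to induce them too. Their products include the Fos and Jun proteins, which pair as the transcription factor AP-1, and proteins that end the response, among them a MAP kinase phosphatase and an mRNA decay factor. The 10 members described here, Fos, Fosb, Jun, Junb, Egr1, Atf3, Ier2, Dusp1, Nr4a1 and Zfp36, were chosen by symbol among the 32285 genes of the count tables, and all 10 were among the 8571 genes with a mean of at least 10 CPM, a gene's UMIs scaled to a common library total, that were compared.

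The data were single-cell RNA sequencing libraries of CD45+ leukocytes drawn with magnetic beads from the digested colon in a mouse model of colitis, in which dextran sulfate sodium (DSS) damages the gut lining. Each of the 4 samples mixed 3 mice, given DSS at 2% in their water over 7 days, with tissue taken on day 8, at an age of 8 weeks by the study's text and 10 weeks by the labels. The study compared wild-type with AhR-deficient mice, which are null for the aryl hydrocarbon receptor, but the labels name no genotype, so the samples are numbered 1 to 4, each is reported on its own, and genotype and sample cannot be told apart. No untreated colon was analysed here.

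Cells were put in classes by marker genes, none of which was a member, and UMIs, the molecules counted once each, were summed over the cells of a class within a sample and given as CPM of all UMIs of that class. Of 45229 cells, 43432 passed the filters and 28922 entered 1 of 14 classes, with 72509408 to 135516016 UMIs per sample before the filters. Classes were read with at least 50 cells in a sample, and 9 were read in all 4 samples, 8 of leukocytes and the fibroblasts that had come through the bead selection. Leading genes were, for example, Retnlg and S100a8 in neutrophils, C1qa in macrophages and Dcn in fibroblasts. They included markers used in the gates, so they are no independent check of the classes. The other monocyte-macrophage cells were led by C1qb and C1qa, genes that also led the macrophages. The dendritic cells were led by Fscn1, Ccl22 and Ccr7, genes of mature dendritic cells. No member was among the 10 leading genes of any class. Between pairs of samples, 0.271% to 0.423% of cell barcodes were shared. Because the samples have no group and cells are not replicates, no p-value was computed. The spread between samples and exact 95% intervals for counting error stand in its place. The intervals cover counting error only, and a summed level cannot tell fewer cells with transcripts from fewer transcripts per cell.

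Of the 10 members, 8 matched a promoter in RefSeq on GRCm38.p6, the same assembly as mm10, on which the submitters' notes place the counts, and Egr1 and Ier2 did not. The windows below are shown because they hold the letters of elements by which immediate early genes are known to respond, and each runs from the 80th to the last base before the start of transcription, except that of Dusp1, which runs from the 200th to the 121st base before it. Capitals mark TGACGT or TGACGTCA, the element bound by CREB and ATF proteins, TATAAA, the TATA box, TGACATCA, the variant through which Jun can act on its own gene, CACGTG, the E-box, and the CArG box of serum response factor. Both strands were searched, so a site can read as its complement.
Fos, chr12:85473810-85473889, plus strand: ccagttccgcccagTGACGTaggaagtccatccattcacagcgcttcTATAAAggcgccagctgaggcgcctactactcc
Jun, chr4:95052223-95052302, minus strand: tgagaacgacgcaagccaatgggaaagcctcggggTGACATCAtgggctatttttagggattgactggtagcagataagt
Atf3, chr1:191183334-191183413, minus strand: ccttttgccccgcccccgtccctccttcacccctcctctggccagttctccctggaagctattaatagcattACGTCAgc
Dusp1, chr17:26508593-26508672, minus strand: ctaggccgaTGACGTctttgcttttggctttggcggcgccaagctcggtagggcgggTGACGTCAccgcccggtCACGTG
Zfp36, chr7:28379229-28379308, minus strand: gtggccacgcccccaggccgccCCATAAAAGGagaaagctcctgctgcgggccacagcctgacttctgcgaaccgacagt

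Within the 250 bases before the start, TGACGT stood in 3 of the 8 promoters, those of Fos, Atf3 and Dusp1, and in 6.47% of all 32851 promoters. The full palindrome TGACGTCA, which contains TGACGT on both strands, stood only in that of Dusp1 among the 8 and in 1.55% of all. TGACATCA was found in Jun and in 2.93% of all, the CArG box in Zfp36 and in 1.47%, CACGTG in Dusp1 and in 6.02%, and TATAAA in Fos and in 12.4%. GGGCGG, the GC box, stood in 7 of the 8 and in 32.7% of all, and TGANTCA, the AP-1 element, in none of the 8 and in 6.75% of all. A match to letters is not evidence of binding, and the promoters bear no measurement in these data.

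Transcript features, which the choice of genes had not used, varied among the members. In GENCODE M21, the 3′ untranslated regions of the members held a median of 3.56 ATTTA pentamers per 1000 bases, the core of the AU-rich elements that tristetraprolin, the product of Zfp36, binds to hasten mRNA decay. The median over 19137 protein-coding genes with at least 100 such bases was 1.30. Members ranged from 0 in Ier2 and 0.466 in Fosb to 5.52 in Nr4a1 and 5.80 in Dusp1, and 8 of 10 lay above the median of all genes. The longer element TTATTTATT was present in 3 of 10 members, Fos, Dusp1 and Zfp36 itself, and in 7.44% of the protein-coding genes. Jun, Junb and Ier2 have no intron, and the members had 0 to 7 introns, with a median of 2 against 6 over all protein-coding genes.

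Each member had its own order of levels over the cell classes. Fibroblasts, which do not carry CD45, held the largest levels of Fosb, Jun, Egr1 and Ier2, above all 8 leukocyte classes in 4 of 4 samples. Among the 8 leukocyte classes read in all samples, innate lymphocytes had the highest median of Fos, Fosb, Jun, Junb, Ier2 and Nr4a1. NK cells and ILC1, a part of this class, did not hold that rank for Fos, Jun, Junb and Nr4a1 when taken alone. B cells were highest for Jun in samples 3 and 4, and macrophages for Fos and Ier2 in sample 2 and for Junb in sample 4. Macrophages had the highest median of Egr1, Atf3, Dusp1 and Zfp36, though dendritic cells were highest for Atf3 in sample 1 and monocytes for Zfp36 in sample 3. Neutrophils were lowest of the 8 for Fos, Jun and Junb in 4 of 4 samples. That rank has no share over all genes beside it, and 19.2% of all genes were called lower in neutrophils against monocytes. Plasma cells, not read in sample 4, stood higher than innate lymphocytes for Jun, at 700.1 to 944 CPM, and by their median for Fos, at 792 CPM, and lower than neutrophils for Junb. Immunoglobulin genes took 36.9% to 39.5% of plasma cell UMIs, which lowers the CPM of every other gene. The place of plasma cells below neutrophils for Junb can depend on that total. The 10 members summed to 9892 to 11275 CPM in fibroblasts, 3403 to 6878 in macrophages, 4193 to 5447 in innate lymphocytes and 1577 to 2801 in neutrophils. With each gene's 9 classes put in order of their median, the ranges over samples overlapped for 71 of the 80 neighbouring pairs. The ranges pool samples, and neighbours by median lie close by construction, so an overlap cannot show that the classes did not differ. For Dusp1 all 8 pairs overlapped, yet macrophages exceeded monocytes in 4 of 4 samples, by 1.05 to 1.59 times. No share over all genes stands beside these counts of pairs. The 9 pairs that lay apart were 3 for Fosb, 2 for Ier2 and 1 each for Jun, Junb, Egr1 and Nr4a1.

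**Figure D1:**
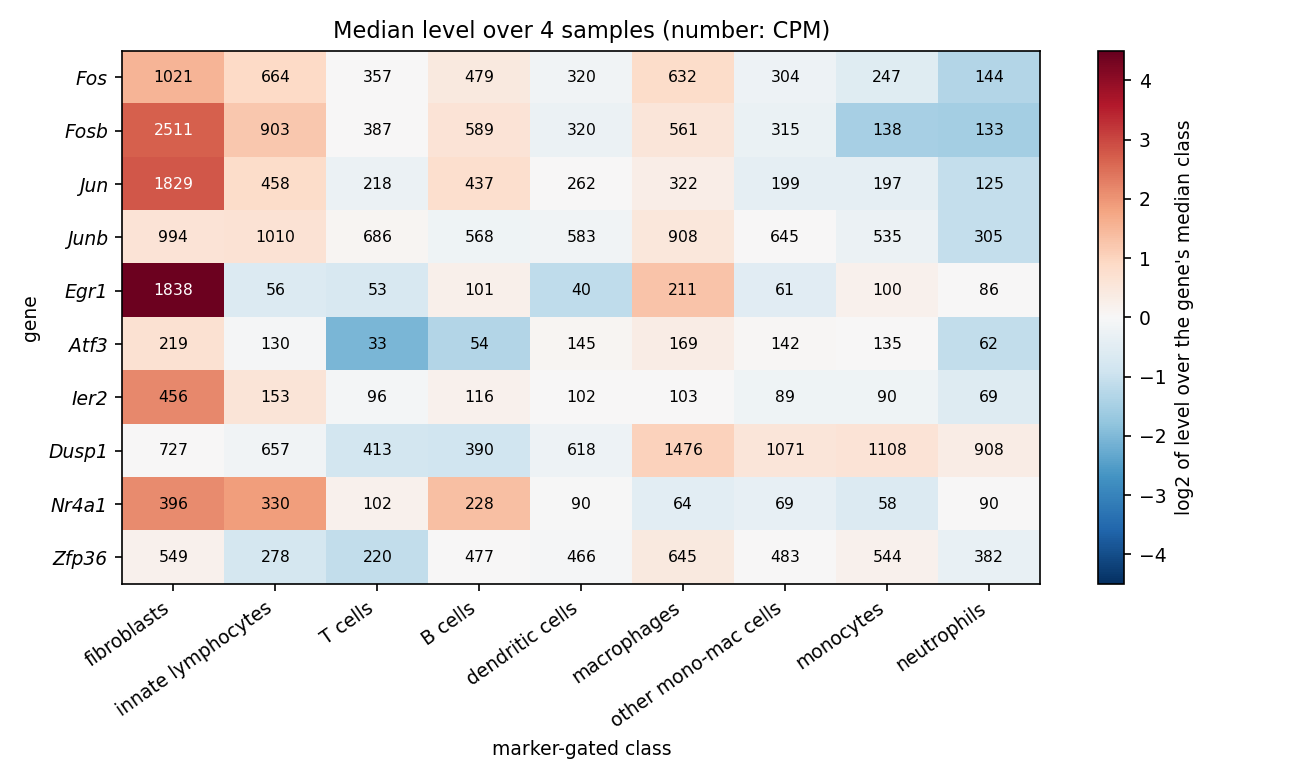
Median level over the 4 samples of each member (rows) in the 9 classes read in all samples (columns), with CPM printed in each cell and the color giving log2 of that level over the median class of the same gene. Fibroblasts have the highest median for Fos, Fosb, Jun, Egr1, Atf3, Ier2 and Nr4a1, and Egr1 stands at 1838 CPM there against 211 in macrophages.

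Fos, Fosb, Jun and Junb encode the leucine-zipper proteins of AP-1, in which a Fos protein pairs with a Jun protein and Jun proteins can also pair among themselves. Fosb stood at 2484, 2414, 2969.6 and 2538 CPM in the fibroblasts of samples 1 to 4. In innate lymphocytes it was 910.2, 1049, 726 and 896 CPM, and in neutrophils 104, 251, 141 and 124 CPM. The 3 ranges did not overlap, and each sample kept this order. B cells were nearly even between samples, at 562 to 612 CPM. Macrophages, at 411 to 1024 CPM, overlapped with innate lymphocytes, and T cells were at 279 to 589 CPM. Monocytes, at 139, 167, 122 and 137 CPM, overlapped with neutrophils and lay below them in samples 2 and 3.

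Jun was highest in fibroblasts and lowest in neutrophils among the 9 classes in 4 of 4 samples. It was 2118, 1833, 1747 and 1825 CPM in fibroblasts, 536, 507, 361 and 409.9 CPM in innate lymphocytes and 111, 99.5, 138 and 153 CPM in neutrophils. B cells (389 to 499.5 CPM) overlapped with innate lymphocytes, and monocytes (139 to 208 CPM) overlapped with neutrophils. Fos was 932, 689, 1109.8 and 1203 CPM in fibroblasts and 668, 611, 660.4 and 897 CPM in innate lymphocytes. Those ranges overlapped, and no neighbouring pair of classes was apart for Fos. In neutrophils Fos was 97.1, 142, 156 and 146 CPM, below every other of the 9 classes in each sample.

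Junb had the flattest profile of the AP-1 genes. It was 1149, 1109.9, 732 and 909.6 CPM in innate lymphocytes, 1061, 1039, 723 and 949.9 CPM in fibroblasts and 796, 1061, 629 and 1019 CPM in macrophages, 3 classes that overlapped. Neutrophils were at 281, 452, 295 and 314 CPM, below the monocytes at 478 to 579.8 CPM. Over the 8 leukocyte classes read in all samples, the median of its highest was 3.32 times that of its lowest, against 6.80 for Fosb. Plasma cells, read in samples 1 to 3, had 203, 250.3 and 208 CPM of Junb and 944, 700.1 and 772 CPM of Jun. Their 2.80 to 4.65 UMIs of Jun per UMI of Junb lay above the 0.683 to 0.936 of B cells and the 0.299 to 0.418 of T cells, a quotient that does not depend on the rest of the library. In fibroblasts the same quotient was 1.77 to 2.42.

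**Figure D2:**
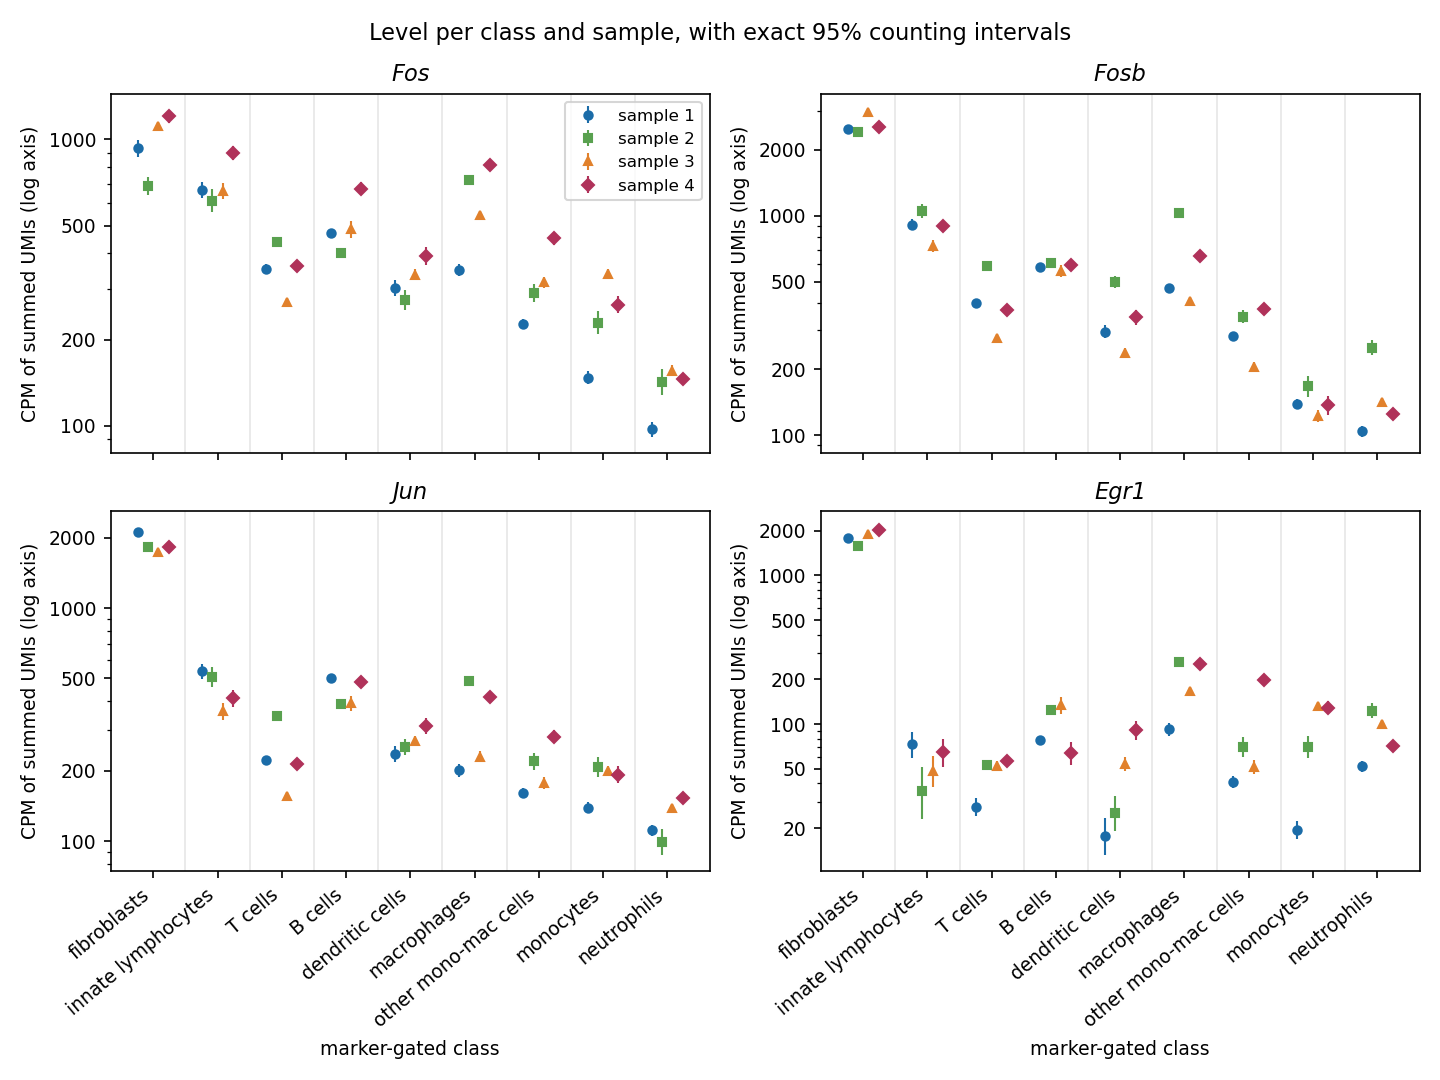
CPM of summed UMIs (log axis) of Fos, Fosb, Jun and Egr1 by marker-gated class, with 1 point per sample and bars for exact 95% intervals of the counting error. For Fosb, Jun and Egr1 the 4 fibroblast points lie above every leukocyte point, and for Egr1 the leukocyte points spread widely between samples, from 19.5 to 133 CPM in monocytes.

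Egr1 encodes a zinc-finger transcription factor and is a standard readout of ERK signalling. It was 1788, 1569, 1889 and 2012 CPM in fibroblasts, a range that no leukocyte class approached. Macrophages were highest among leukocytes in 4 of 4 samples, at 92.2, 263, 168 and 255 CPM. Dendritic cells had 17.8, 25.1, 54.0 and 90.7 CPM and T cells 27.7, 53.0, 52.1 and 56.3 CPM. Endothelial cells, read in samples 3 and 4, had 1065 and 955 CPM, and epithelial cells, read in samples 2 and 4, 400.3 and 475 CPM, so that the 3 classes without CD45 headed the order. As a measure of RNA from other cells, the fibroblast collagen-binding gene Dcn reached 0.0111% to 0.446% of its fibroblast level in the leukocyte classes. Other marker genes carried over further, up to 5.31% of the home level for the neutrophil gene S100a8 and 10.9% for the B cell gene Cd79a. Egr1 in the lowest class was 0.997% to 2.80% of its highest.

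Atf3, a stress-induced factor that mostly represses transcription, had another order. It was 143, 323, 152 and 187 CPM in macrophages, 236, 176, 201 and 243 CPM in fibroblasts and 199, 179, 112 and 107 CPM in dendritic cells. T cells were lowest of the 9 classes in 4 of 4 samples at 31.3, 49.8, 34.1 and 29.7 CPM, and B cells (45.7 to 66.1 CPM) overlapped with them. Epithelial cells had 414 and 441 CPM. Macrophages, dendritic cells and fibroblasts thus overlapped for Atf3, and B cells and T cells lay below all 3 without overlap, while neutrophils, at 49.0 to 103 CPM, overlapped with the B cells.

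Ier2, a nuclear protein of the early response, was 528, 509, 374 and 404 CPM in fibroblasts. Innate lymphocytes had 174, 152, 154 and 145 CPM and neutrophils 55.2, 94.7, 68.8 and 69.0 CPM. All leukocyte classes lay between 55.2 and 174 CPM apart from 1 plasma cell value of 180.0 and the mast cells and basophils of sample 2 at 50.7.

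Nr4a1 encodes the orphan nuclear receptor Nur77, which antigen receptor signalling induces in lymphocytes. It was 298, 333, 327 and 619 CPM in innate lymphocytes, 195, 311, 194 and 262 CPM in B cells and 92.7, 112, 90.8 and 139 CPM in T cells. B cells and T cells did not overlap. Monocytes were at 37.8, 56.1, 60.4 and 73.7 CPM, macrophages at 45.9, 116, 43.4 and 82.2 CPM and plasma cells at 26.3, 59.8 and 37.2 CPM. Fibroblasts had 379, 414, 374 and 561 CPM and overlapped with innate lymphocytes.

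Dusp1 and Zfp36 encode inhibitors of the response, the former a phosphatase that inactivates MAP kinases and the latter tristetraprolin. By their medians both were highest in macrophages among the 9 classes, in 4 of 4 samples for Dusp1 and in 2 of 4 for Zfp36. Dusp1 was 769, 1061, 1889.9 and 2419 CPM in macrophages, 512, 698, 1804 and 1518 CPM in monocytes and 461, 795, 1304 and 1022 CPM in neutrophils. It was 307, 286, 472 and 487 CPM in B cells and 294, 338, 488 and 607 CPM in T cells. Innate lymphocytes, at 532, 399, 781 and 984 CPM, overlapped with the myeloid classes. Within each sample the 5 myeloid classes read in all samples exceeded both B and T cells, while the mast cells and basophils of sample 2 had 137 CPM. Neutrophils had a median Dusp1 level of 908 CPM, above 5 of the other 8 classes.

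Zfp36 was 457, 634, 657 and 915 CPM in macrophages and 413, 378, 705 and 676 CPM in monocytes. T cells were lowest of the 9 classes in 4 of 4 samples, at 188, 222, 218 and 253 CPM. B cells had 444, 345, 511 and 544 CPM, above the T cells of the same sample in each case. Fibroblasts, at 470.1, 602, 496 and 636 CPM, overlapped with the macrophages, so neither feedback gene shared the fibroblast excess of Egr1 and Jun.

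**Figure D3:**
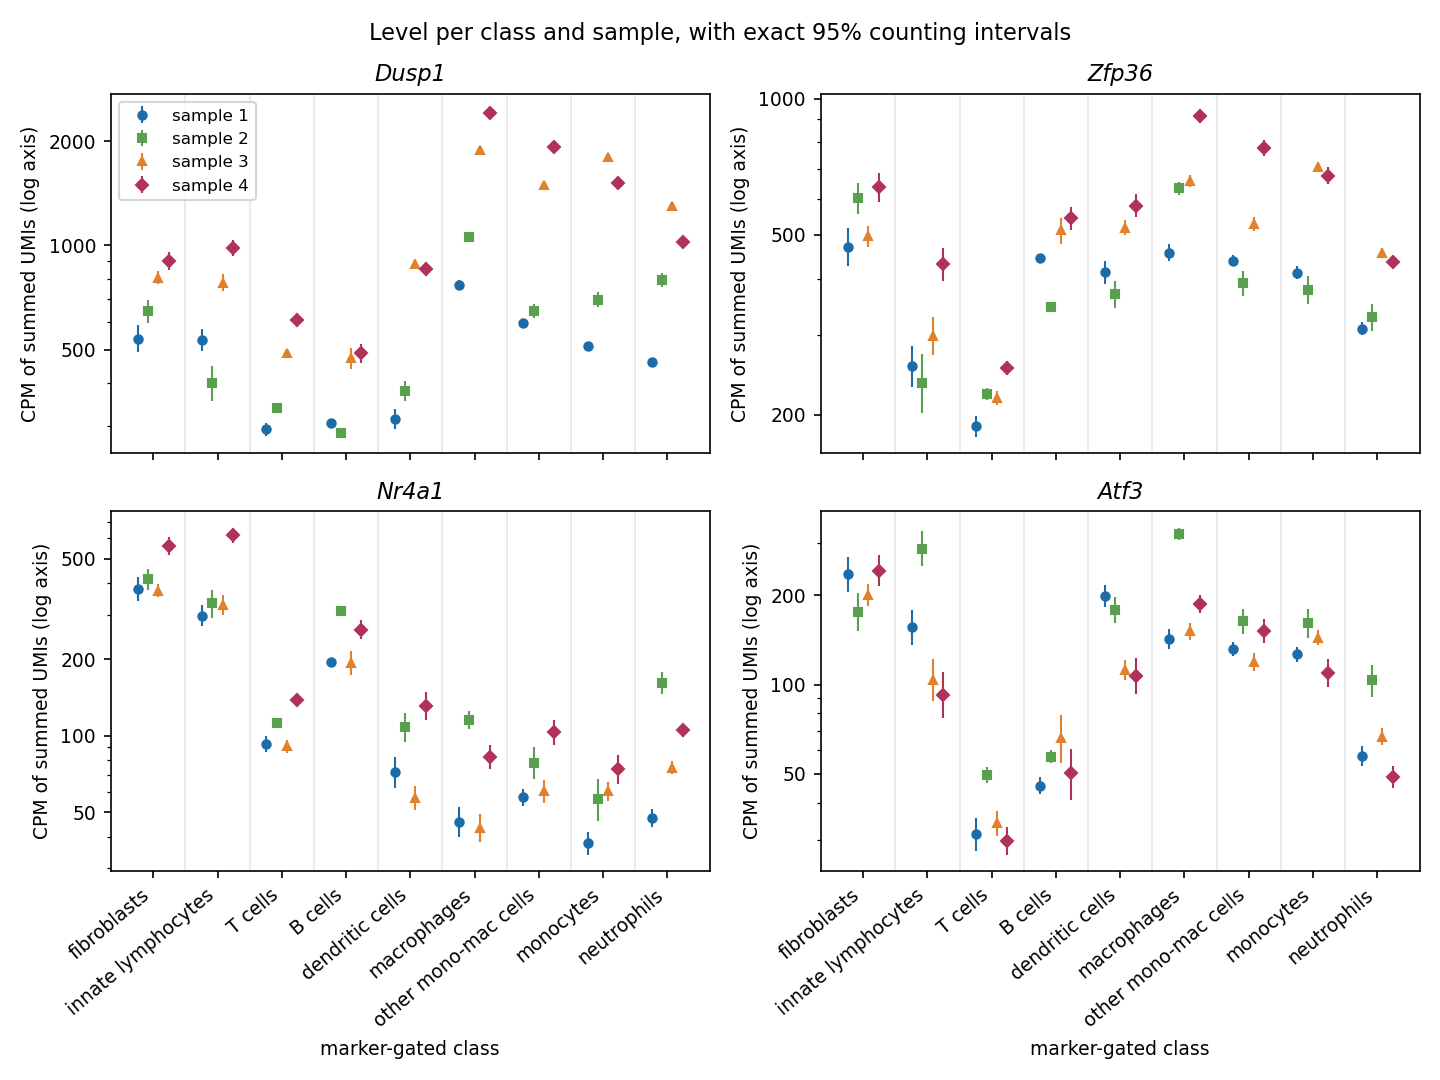
CPM of summed UMIs (log axis) of Dusp1, Zfp36, Nr4a1 and Atf3 by marker-gated class, with 1 point per sample and bars for exact 95% intervals of the counting error. The points of samples 3 and 4 lie above those of samples 1 and 2 in every class for Dusp1, and sample 2 has the highest Atf3 in 6 of 9 classes.

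Among lymphocytes without an antigen receptor, ILC2, which make type 2 cytokines, were read in samples 3 and 4 with 82 and 113 cells. Their Fos was 1049 and 1137 CPM against 405 to 587 in NK cells and ILC1, and their Dusp1 was 1183 and 1273 CPM against 258 to 566. The ranges of ILC2 lay above those of NK cells and ILC1 without overlap for Fos, Fosb, Jun, Dusp1, Nr4a1 and Zfp36. They overlapped for Junb, Atf3, Ier2 and Egr1. The ILC2 ranges held 2 samples and the others 4, which eases a gap, and no share over all genes stands beside the count. In samples 3 and 4 in turn, ILC2 had 981 and 1114 CPM of Junb against 547 and 665. Atf3 was also higher, at 168 and 101 against 57.9 and 85.8 CPM. Egr1 was lower, at 33.9 and 21.7 against 54.5 and 80.03 CPM. Ier2 was higher in sample 3 and lower in sample 4. CD4 and CD8 T cells overlapped for all 10 members, with Fos at 223 to 447 CPM in CD4 and 291 to 418 CPM in CD8 T cells. Samples 1 and 2 held 38 and 30 ILC2, too few to be read, so the mixture behind the innate lymphocyte levels differed between samples. Taken alone, NK cells and ILC1 had medians of 442 CPM for Fos and 776 for Junb, below macrophages at 632 and 908. Their Jun at 266 and Nr4a1 at 209 CPM lay below B cells at 437 and 228. Their Fosb at 601 and Ier2 at 145 CPM lay above B cells at 589 and 116.

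Ratios between classes were formed within each sample, and a gene was called where its ratio passed 2-fold in the same direction in every sample read. Contrasts that share a class share its cells, as the 2 with monocytes and the 2 with B cells do, and their values are given side by side without a comparison between them. In macrophages against monocytes, 1 of 10 members was called higher, Fosb, at 3.38, 6.14, 3.36 and 4.77 times in samples 1 to 4, where 3.94% of the 8571 genes were called higher. None was called lower, against 2.11%. Fos was higher by 2.38, 3.15, 1.60 and 3.08 times and missed the call through sample 3, and Egr1 was higher by 4.74, 3.74, 1.26 and 1.97 times. The median over members was a log2 ratio of 0.63 against 0.14 over all genes compared. Of the members, 8 of 10 were higher in 4 of 4 samples, a count with no share over all genes beside it. Of the wider list of 40 other early genes, of which 38 could be compared, 0 were called in either direction.

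In neutrophils against monocytes, no member was called, with 5.59% of genes called higher and 19.2% lower. Lower values in 4 of 4 samples were seen for 6 members, Fos, Jun, Junb, Atf3, Ier2 and Zfp36, with no share over all genes beside them. Fos stood at ratios of 0.659, 0.621, 0.458 and 0.551. Fos was called lower without cells over 2 times the median UMIs, and with the mean of each cell's share. Those calls have no share over all genes under the same settings beside them. Nr4a1 was higher in 4 of 4, at 1.26, 2.87, 1.24 and 1.42. The median log2 ratio of the members was -0.37 and that of all genes -0.41. In the wider list, Egr3, Klf2 and Cebpd were called higher, with median ratios of 4.88, 3.10 and 2.91, and Klf4 and Ier3 lower, with 0.248 and 0.432. Egr3 is a relative of Egr1, and Klf2 and Klf4 are Krüppel-like zinc-finger factors. Of the 12 heat shock genes, 6 were called lower in neutrophils.

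In dendritic cells against macrophages, 2 of 10 members were called lower, where 7.0% of all genes were. Egr1 stood at 0.193, 0.0954, 0.321 and 0.356 times its macrophage level and Dusp1 at 0.410, 0.358, 0.469 and 0.353. With a looser marker gate the Dusp1 call was lost and Egr1 alone was called, with no share over all genes under that gate beside it. None was called higher, against 6.65%. The median log2 ratio was -0.61 for the members and 0.08 for all genes. In the wider list, Ier3, Cebpb, Sgk1 and Rhob were called lower, with median ratios of 0.189, 0.194, 0.199 and 0.359, while the receptors Nr4a3 and Nr4a2, paralogs of Nr4a1, were called higher at 5.66 and 3.30. Nr4a1 itself was at 1.56, 0.935, 1.31 and 1.60 and not called.

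In T cells against B cells, no member was called, with 6.18% of genes called higher and 4.67% lower. Of the 10, 7 lay lower in T cells in 4 of 4 samples, a count with no share over all genes beside it. Among them were Nr4a1 at 0.475, 0.360, 0.469 and 0.530, Zfp36 at 0.425, 0.643, 0.426 and 0.466 and Jun at 0.444, 0.881, 0.399 and 0.443. Each missed the call through 1 sample, sample 4 for Nr4a1 and sample 2 for Zfp36 and Jun. Without sample 2, Jun and Zfp36 were called lower, and without sample 4, Nr4a1 and Egr1. These calls follow by construction once the sample that blocked them is left out. They have no share over all genes under the same rule beside them. In the wider list, Tnfaip3, an inhibitor of NF-kB signalling, was called higher at a median of 3.89, and Egr3, Klf2 and Egr2 lower at 0.103, 0.292 and 0.407.

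In plasma cells against B cells, read in samples 1 to 3, 2 of 10 members were called lower, Nr4a1 at 0.135, 0.192 and 0.192 and Junb at 0.380, 0.439 and 0.366, where 32.8% of all genes were called lower and 3.92% higher. None was called higher, with Jun at 1.89, 1.8 and 1.97 and Fos at 1.68, 1.56 and 1.70. Immunoglobulin genes took 36.9% to 39.5% of plasma cell UMIs, against 0.363% to 0.861% in B cells, which lowers the CPM of every other gene. With mitochondrial, ribosomal protein and antigen receptor genes left out of the total, Fos and Jun were called higher, against 8.21% of genes, and Nr4a1 alone was called lower, against 8.62%. The median log2 ratio of the members was -0.22 and that of all genes -0.86. Of the wider list, 12 of 38 were called lower, led by Egr3 at 0.0301 and Dusp2 at 0.102, and Trib1 and Dusp4 were called higher at 6.81 and 5.46.

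**Figure D4:**
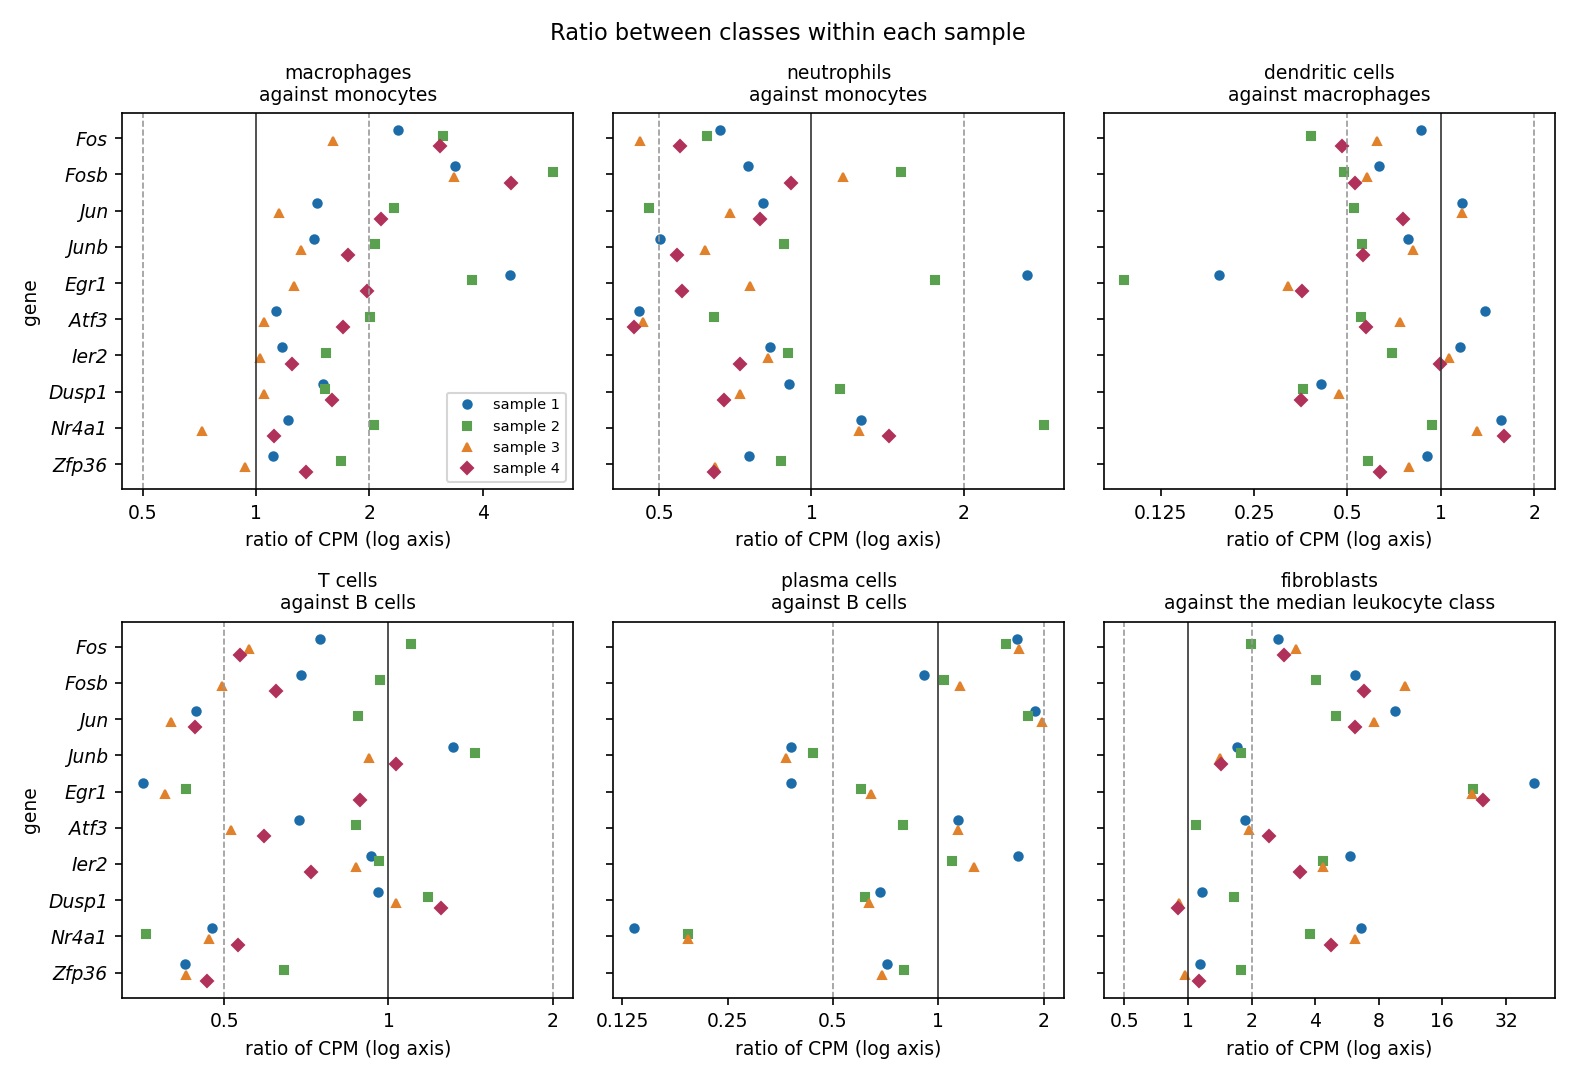
Ratio of CPM between classes within each sample (log axis) for the 10 members in the 6 contrasts, with 1 point per sample, a solid line at 1 and dashed lines at 2-fold. A called member has all its points beyond the same dashed line, as Fosb has in macrophages against monocytes and Egr1 in fibroblasts, where the ratios run from 22.0 to 43.6.

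Fibroblasts against the median leukocyte class gave the most calls, 5 of 10 members higher, where 12.8% of all genes were called higher and 9.72% lower. Egr1 was 43.6, 22.3, 22.0 and 24.8 times the median leukocyte level, Jun 9.54, 5.01, 7.58 and 6.15 and Fosb 6.18, 4.02, 10.7 and 6.81. Nr4a1 was 6.61, 3.76, 6.19 and 4.75 times and Ier2 5.86, 4.38, 4.36 and 3.39 times that level. Fos, at 2.66, 1.99, 3.26 and 2.85, missed the call through sample 2, and Dusp1, at 1.17, 1.66, 0.911 and 0.90, was on either side of 1. No member was called lower. The median log2 ratio was 1.79 for the members and -0.08 for all genes.

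Of the wider early genes, 12 of 38 were called higher in fibroblasts, with a median log2 ratio over the list of 0.75, and 4 were called lower. Ccn1, a matrix protein under serum response factor and YAP, had a median ratio of 181, Cebpd 66.3, Egr3 8.46, Klf4 7.51, the AP-1 gene Fosl1 6.92 and Myc 6.10. Ccn1 lay at or near the floor of 3 UMIs in several leukocyte sums, so the size of its ratio can depend on that floor. Dusp2, a phosphatase gene of hematopoietic cells, was called lower at 0.0757, as were Dusp5 at 0.187, Pim1 at 0.370 and Btg1 at 0.394. Of the upstream kinases and factors, 0 of 19 were called higher and 1, Mapk14, lower at 0.320. Of the bZIP partners, 4 of 13 were called higher, led by Atf5 at 16.2, and Batf and Crem lower at 0.172 and 0.270.

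Of the 12 heat shock genes, which dissociation can also induce, 4 were called higher in fibroblasts, where 12.8% of all genes were. Summed over the 12 they were 3645 to 5339.8 CPM in fibroblasts, 2278 to 3725 in macrophages, 2711 to 3232 in T cells and 682 to 942 in neutrophils. The sum was 4458 to 4755 CPM in endothelial and 3364 to 7208 CPM in epithelial cells, and the fibroblast range overlapped with both and with macrophages. The genes called in fibroblasts were Hspb1 with a median ratio of 84.3, Hspa1a of 36.9, Hspa1b of 30.3 and Dnajb1 of 16.2. Hspb1 too lay near the floor of 3 UMIs in several leukocyte sums, on which the size of its ratio can depend. In macrophages against monocytes, Hspa1a was called higher at 5.40. The share of mitochondrial UMIs was 2.84% to 3.21% in fibroblasts, above the 1.23% to 1.60% of neutrophils and below the 3.32% to 3.93% of B cells. The part of handling in the levels was not tested, and activation in the tissue and induction during digestion cannot be told apart here.

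Between samples, 32 of 90 pairs of a member and a class, or 35.6%, had a range of 2-fold or more, where 25.2% of all pairs did. Egr1 passed in 8 of 9 classes and Dusp1 in 7, Fosb and Nr4a1 in 4 each, Atf3 in 3, Fos and Jun in 2 each, Ier2 and Zfp36 in 1 each, and Junb in none. Egr1 in monocytes was the widest, at 19.5, 70.5, 133 and 129 CPM from 186, 142, 1110 and 399 UMIs. By class, macrophages had 9 of 10 members over 2-fold, where 21.3% of all genes were, and fibroblasts 0 of 10, where 38.8% were. The shares over all genes are not matched for level. They include genes with few UMIs in the small fibroblast sums, where counting error can pass 2-fold. The fibroblast values thus do not show that the members were steadier than other genes. In macrophages, sample 1 was lowest for 7 members and sample 3 for 3, and sample 2 was highest for 7 and sample 4 for 3. The macrophages of sample 2 also had the highest summed heat shock level, 3725 CPM, and the range between samples was 1.64-fold. Without sample 1 the share was 22.2% of the members' pairs and 19.0% of all pairs, and without sample 2 it was 21.1% and 16.8%.

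Dusp1 was the member with the most regular order of samples. Samples 3 and 4 were its 2 highest in 9 of 9 classes, a pattern that 1.68% of all genes showed. The pattern was noticed in these values, and it sets samples side by side that the labels do not group. The reverse, samples 1 and 2 highest in all 9 classes, held for 1.8% of genes, and each of the 4 other pairs for at most 0.0933%, and what samples 3 and 4 share is not in the labels. The difference was widest in myeloid cells, with 3.52-fold between the extreme samples in monocytes, 3.23-fold in the other monocyte-macrophage cells and 3.15-fold in macrophages, and narrowest in fibroblasts, at 1.68-fold. Zfp36 had sample 4 among its 2 highest in 9 of 9 classes and sample 3 in 7. Nr4a1 had sample 4 there in 9 and sample 2 in 8, Fosb had sample 2 in 8, and Atf3 sample 2 in 8. Fos had sample 4 among its 2 highest in 9 classes, while Atf3 had sample 4 lowest in 5. Apart from the pattern of Dusp1, these counts have no share over all genes beside them. Sample 4 was highest in 40 of the members' 90 pairs and sample 1 in 10. Over all pairs the shares were 27.4% and 19.4%. The members thus did not share 1 order of samples.

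Over the 36 sums of 9 classes and 4 samples, which share cells of the same libraries, the members differed in how far they went together. The correlation of a member with the mean of the other 9, on the scale of log2(CPM + 1), was 0.910 for Ier2, 0.905 for Jun, 0.843 for Fosb and 0.842 for Fos. It was 0.767 for Egr1, 0.686 for Junb, 0.625 for Nr4a1, 0.478 for Atf3, 0.354 for Zfp36 and 0.0959 for Dusp1. Over the 32 sums of leukocytes alone, Fos and Jun had r = 0.897, Dusp1 and Zfp36 0.736, and Dusp1 and Nr4a1 -0.290. Egr1 there had r = 0.643 with Dusp1 and 0.613 with Zfp36, but 0.204 with Jun and 0.131 with Fosb. These values describe the sums and carry no test.

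The genes outside the list with the pattern most like the members' mean over the 36 sums were Maoa (r = 0.910), 2210408I21Rik, Rhob, Klf4, Bmp2, Ltbp3, Nr1d1, Crtap, Zcchc14 and Tsc22d2 (r = 0.874). Fibroblasts were the high points of these patterns, with Klf4 at a median of 1794 CPM there and 267 over all sums. Rhob and Tsc22d2 had medians of 112 and 174 CPM over all sums. Maoa, 2210408I21Rik, Bmp2, Ltbp3, Nr1d1, Crtap and Zcchc14 had only 1.51 to 7.44 CPM, so their r rests in part on low counts. Without fibroblasts r was 0.776 for Rhob and 0.638 for Zcchc14, the extremes of the 10. Rhob and Klf4, early genes themselves, were on the wider list.

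Per cell, depth was made equal by thinning each cell to 1000 UMIs, which left out 256 gated cells, or 0.894%. Fibroblasts then held a mean of 4.46 to 4.98 of the 10 members with at least 1 UMI, macrophages 2.30 to 3.53, innate lymphocytes 2.76 to 3.25 and neutrophils 1.26 to 1.90. Without thinning the values were 7.83 to 9.0 in fibroblasts and 3.94 to 4.48 in neutrophils. Cells with no member at 1000 UMIs made up 0.619% to 1.84% of fibroblasts and 13.1% to 29.9% of neutrophils. Fosb was found in a median of 86.8% of fibroblasts and 9.51% of neutrophils, Egr1 in 70.4% and 7.80%, and Dusp1 in 40.2% and 54.8%. The fibroblast level of Fosb, Jun and Egr1 was carried by most cells, with Jun in a median of 68.2%, and Dusp1 was the 1 member with a higher median share in neutrophils than in fibroblasts. No class is known to lack these genes, so no share could be set against a class without them.

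**Figure D5:**
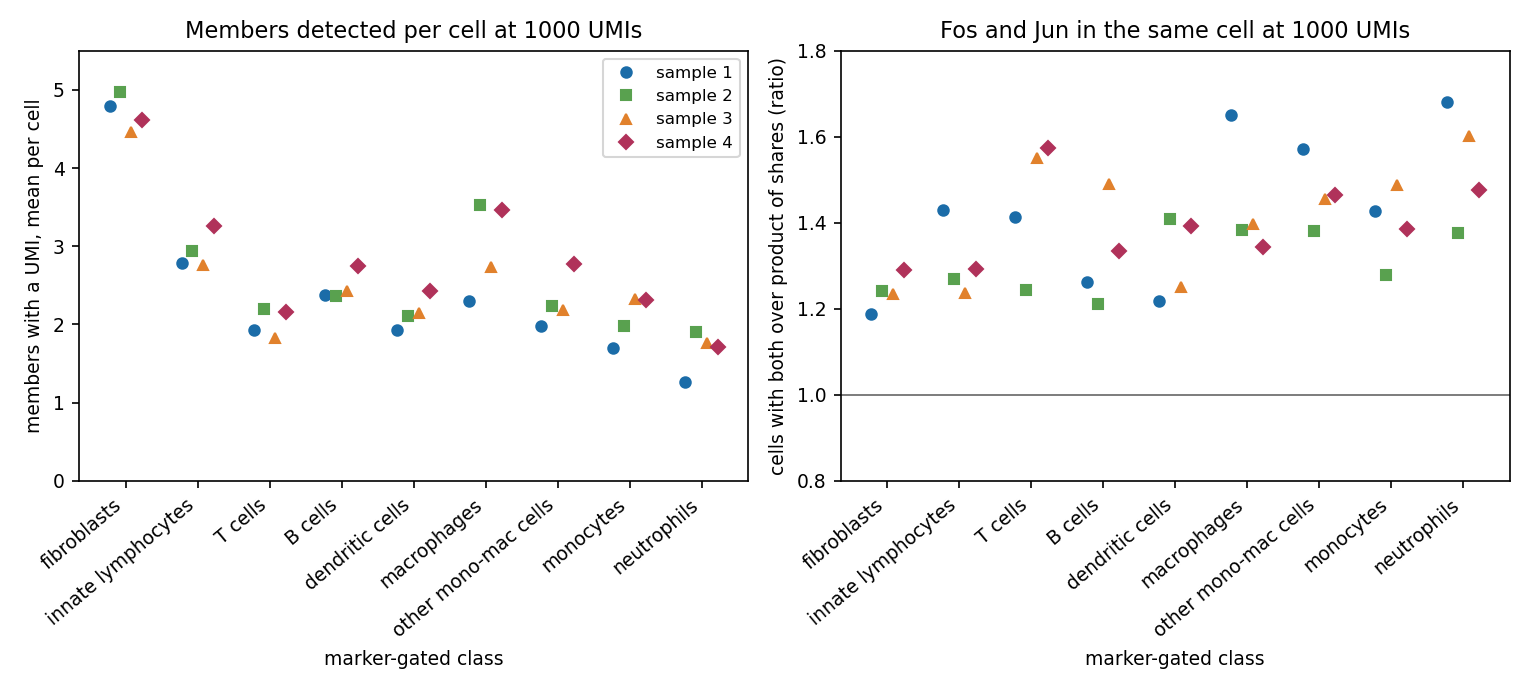
Left, mean number of the 10 members with a UMI per cell after thinning to 1000 UMIs, by marker-gated class and sample. Right, the share of cells with both Fos and Jun divided by the product of their shares (ratio, with 1 marked by a line and an axis that begins at 0.8): all 36 points lie above 1, from 1.19 to 1.68.

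The members were found in the same cells more often than the product of their shares. At 1000 UMIs, 1579 of the 1620 combinations of 45 pairs, 9 classes and 4 samples had a ratio over 1, with a median of 1.23. No share over pairs of other genes stands beside this count, so it cannot set the members apart from them. Fos and Jun ranged from 1.19 to 1.68, with a median of 1.38, and Egr1 and Nr4a1 had the highest median of the pairs, 1.59. Fosb and Dusp1 had the lowest, 1.09. By class the median ran from 1.14 in B cells to 1.29 in T cells, where 180 of 180 ratios were over 1. Cells of 1 class that differ in subtype or state also raise this ratio, and the pairs share cells and genes, so it was not tested.

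Within a class and sample, the members' summed CPM was mostly lower in the deepest cells, though not for every member. The tertile of cells with the most UMIs had 0.370 to 1.32 times the level of the tertile with the fewest, with a median of 0.735, and the ratio was above 1 in 3 of 36. It was 0.370 to 0.715 in fibroblasts, 0.525 to 0.604 in innate lymphocytes and 0.872 to 1.32 in dendritic cells. In neutrophils the ratio was above 1 in 4 of 4 samples for Fos, at 1.79, 1.32, 2.09 and 1.38, and for Jun, at 1.59, 1.13, 1.39 and 1.63, while it was 0.476, 0.410, 0.669 and 0.540 for Dusp1. Over all 36, Dusp1 had the lowest median of the members, 0.655, and Atf3 the highest, 0.996. Split by the mitochondrial share in place of depth, the ratio of the summed level had a median of 0.946 and was above 1 in 16 of 36. In neutrophils and fibroblasts it was above 1 in 4 of 4 samples each, at 1.06 to 1.28 and 1.03 to 1.74. Single members departed from this summed ratio. Over all 36, Dusp1 had the lowest median of the members under this split, 0.879, and was above 1 in 7. Fos was above 1 in 21, Fosb in 20 and Jun in 20. Their ratios ran from 0.493 to 3.38, 0.71 to 2.91 and 0.515 to 2.71, so the summed ratio can understate or overstate a member. Whether depth or mitochondrial content acted on the members was not tested.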

How the data were processed

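The deposited values are whole UMI counts that the authors had not normalized, in 10x matrices with Cell Ranger 7.0.1 in the header, while the submitters' processing notes name Cell Ranger 5.0.0, STAR, Seurat and mm10. No step after the cell calling of Cell Ranger is evident in the deposited counts, and doublet removal is not given in the sources used here. Cells with at least 200 genes and under 20% mitochondrial UMIs were kept. A gene was positive in a cell above 10% of its 99.9th percentile of UMIs per 10000, and a cell entered a class with at least 3 of its markers and at most 1 of unrelated lists, or 2 dendritic markers for lymphocytes. Doublets were kept out by this gate alone. UMIs were summed per class and sample, with at least 50 cells. Genes with a mean of at least 10 CPM were compared, with a floor of 3 UMIs, and 2-fold in every sample read, at least 3, was a call. Poisson and binomial intervals were exact, at 95%, and thinning was computed exactly. The 10 members, the gene lists and the class markers were chosen with earlier results of these data known. Text names the members, list genes that were called, largest ratios first, and the 10 genes most like the members' mean. Tested on simulated counts for macrophages against monocytes, over 6707 genes, the rule called 50 of 50 genes at 4-fold, 50 of 50 at 3-fold, 49 of 50 at 0.25-fold, 0 of 50 at 1.5-fold and 0 of 6507 unchanged genes. Both simulated classes were drawn from the monocyte profile of each sample with counting error alone. Variation between cells, mixed composition and RNA from other cells were left out. The outcome thus checks the working of the rule and gives no error rate for real classes. The labels give no group, and file names were not used to assign one, so the 4 samples, with a median of 6091 to 7464 UMIs per kept cell, were treated singly. Filters, gates, totals, fold and samples were varied. Python 3.11.15, numpy 2.4.6, scipy 1.17.1, pandas 2.3.3 and matplotlib 3.10.9 were used. Promoters came from RefSeq and transcript features from GENCODE M21.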

Additional observations from a re-analysis of the deposited data

How the results depend on the processing

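Of 670 median ratios of a member under an alternative, 638 moved by less than 1 SD between samples and 32 by more. Part of this was built in. Medians without 1 sample were judged by the SD of the same few values, and none moved by more. The filters on mitochondrial share and on genes per cell kept 28565 and 28787 of 28922 cells. Under the stricter gate only 8 ratios that stayed and 2 that moved could be scored. None of the called ratios changed direction, and 21 uncalled ones did. Counts of called members moved as follows, and the cause was not tested. They stand here without the share of all genes under the same setting. That share moves with the setting too, so the counts are no result about the members. A stricter gate, which kept 9117 cells and left 5 of the 6 contrasts without a value, called 1 member, Nr4a1, lower in T cells against B cells. A looser gate left 1, Egr1, lower in dendritic cells against macrophages. Fos became the 1 member lower in neutrophils against monocytes both without cells over 2 times the median UMIs and with the mean of each cell's share. With mitochondrial, ribosomal and receptor genes left out of the total, 2 members were higher and 1 lower in plasma cells against B cells. At a fold of 1.5, 2 members each were called higher in macrophages against monocytes, lower in neutrophils against monocytes, lower in T cells against B cells and higher in plasma cells against B cells, and 70% of member and class pairs passed the range between samples. At a fold of 3 the counts were 0 lower in dendritic cells against macrophages and 1 lower in plasma cells against B cells, with 8.89% of pairs past the range. Leaving out 1 sample gave 1 to 2 higher in macrophages against monocytes, 0 to 1 lower in neutrophils against monocytes (Atf3, without sample 2), 0 to 2 lower in T cells against B cells, 5 to 6 higher in fibroblasts, and 21.1% to 28.9% of pairs past the range, where fewer samples lower a range by construction. Members detected per cell were 2.32 at 1000 UMIs, 3.51 at 2000 and 6.0 without thinning. A gate of 4 own markers, chosen after seeing the data, kept 23236 cells and moved 4 of 60 median ratios. No paired analysis was possible because the labels give the samples no groups to pair across.

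Classes rest on marker gates, and 5686 gated cells, 19.7%, held exactly the minimum of markers. Of the kept cells, 9175 met a list but mixed markers and 5335 met none. Fibroblasts numbered 62 to 300 per sample and innate lymphocytes 120 to 196. The width of a counting interval relative to its level follows the UMIs and not the cells. Egr1 had 26 UMIs in the innate lymphocytes of sample 2 and 51 in the dendritic cells of sample 1. Atf3 had 183 in the fibroblasts of sample 2.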

Other observations

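Cells outside every class carried the members too. The cells that were not gated summed to 2988 to 4427 CPM over the 10 members, within the span of the leukocyte classes, and to 1942 to 2582 CPM over the 12 heat shock genes. Over the 36 sums of a class in a sample, the members' summed level had r = 0.542 with the heat shock sum, 0.416 with the mitochondrial share and 0.155 with median depth. These sums share libraries and cells, and the values are a description.

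Between the leukocyte sums, 17 of the 45 pairs of members had r above 0.5 and 10 had r below 0, with a median of 0.291. Co-detection within a class was above 1 for 97.5% of combinations over the 45 pairs of members, with no share over pairs of other genes beside it.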
